A study of Homo sapiens with 39 samples.

Results

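The 8 genes described here are known from Schwann cells and other glia, and were followed across 39 libraries of 2 human melanoma cell lines: ERBB3, EDNRB, GPR17, PTPRZ1, L1CAM, CDH19, GJB1 and MIA. They were picked by gene name, 8 of the 60671 genes in the deposited table, and each was set beside SOX10 in the same library. The study deleted an enhancer region of SOX10 in A375 and WM115, both established melanoma lines. Unedited A375 cells (WT) gave 4 libraries, R1-deleted clones 1.1 and 1.2 gave 3 and 4, and R4-deleted clones 4.1 and 4.2 gave 4 and 3. WM115 gave 4 libraries of WT, 5 of R1-deleted clone 1.1, 3 of R1-deleted clone 1.2, and 3 each of R4-deleted clones 4.1 and 4.2. A further WM115 clone, 1.3 with 3 libraries, carries a number of the R1 series but an R4 genotype label, and is described without a region. Each group of edited cells is 1 clone, so a comparison with WT describes that clone, and all clones of a line share 1 set of WT libraries. Nothing in the labels says that the libraries of a group came from separate cultures, so the p-values measure the spread between these libraries, which may be technical.

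SOX10 is a transcription factor of the neural crest, which gives rise to melanocytes and to the Schwann cells and satellite glia of peripheral nerves. It stays on in both lineages, and melanoma cells often keep genes that are better known from glia. ERBB3 is the receptor through which Schwann cells read axonal neuregulin, EDNRB is the endothelin receptor that neural crest precursors need for melanocyte development, and GPR17 is an orphan receptor of oligodendrocyte precursors. PTPRZ1 is a receptor phosphatase of glia, L1CAM and CDH19 are adhesion molecules, GJB1 is the gap junction protein connexin 32 of myelinating cells, and MIA is a small secreted protein of melanoma and cartilage. GJB1, ERBB3 and MIA have been described as SOX10 targets.

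Values are TPM, which scales each library to the same total after correcting for transcript length, and differences are on the log2(TPM + 1) scale. A call required both an adjusted p (limma, Benjamini-Hochberg over all genes tested) below 0.05 and a log2 difference of 1 or more in either direction. Read counts were not used here, so the depth of a library is unknown and no counting interval was computed. The number of genes at 1 TPM or more was 14128 to 16140 per library in A375, and 14084 to 15528 in WM115. The mitochondrial share of the TPM ran from 0.968% to 4.92% in A375, where every group had libraries on both sides of 2.5%. It ran from 4.71% to 19.4% in WM115, where the 4 WT libraries were at 13.7% to 15.6%. Ribosomal protein genes took 12.0% to 13.6% of the TPM in WM115 WT and 11.5% to 18.6% in the WM115 clones, with 1 clone library at the low end and the other 16 at 16.2% or more. The part of the ribosomal share in the WM115 differences from WT was not tested. Of 10 melanoma markers, SOX10 among them, 5 to 6 reached 1 TPM in A375 libraries (530.8 to 2729 TPM summed) and 7 to 10 in WM115 libraries (52.0 to 3445 TPM summed). Of the lists for other cell types, 2 to 3 of 6 epithelial markers (256.99 to 629 TPM summed in A375, 52.4 to 240.2 in WM115) and 1 to 5 of 6 fibroblast markers (4.29 to 20.8 and 372 to 866 TPM) reached 1 TPM. The 5 immune markers did so for 1 or 2 genes (26.6 to 169.8 and 226 to 757 TPM), and the 5 endothelial markers summed to at most 16.4 TPM. The part of these lists in the results was not tested. A single library stood apart: in the third of WM115 clone 1.2 the melanoma markers summed to 52.0 TPM, against 1068 and 1280 in libraries 1 and 2 of that clone, with MLANA, TYR and DCT listed at 0. Results that rest on it are given with and without it.

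SOX10 itself (ENSG00000100146, chr22:37970686-37987422, minus strand, GRCh38) was at 702, 706, 691 and 629.8 TPM in A375 WT and 553, 539.9, 485 and 449 TPM in WM115 WT. In A375 clone 1.2 it was at 441, 406, 473 and 451 TPM, below every WT library but under the minimum size for a call (log2 difference -0.62, SE 0.15, adjusted p = 0.0135). In A375 clones 1.1 and 4.2 it spread widely between libraries, at 667, 491 and 381 TPM and 647, 541 and 488 TPM. Clone 4.1 held 876, 774, 711 and 746 TPM, above every WT library by little and not called (log2 difference 0.18, adjusted p = 0.794). In WM115 clone 1.2 it was at 279, 272 and 9.56 TPM, called lower with all 3 libraries (log2 difference -2.44, SE 0.70, adjusted p = 0.0192). Without the third library the difference was -0.87 (adjusted p = 0.0119), under the minimum size for a call. The call was also lost in a fit of only this clone and WT (adjusted p = 0.164) and with the replicate number as a block (0.237). Among libraries of high mitochondrial share it was lost too (adjusted p = 0.0730). The genes of chromosome 22 were lower as a group in that clone, with a median log2 difference of -0.45, and -0.48 within 10 Mb of SOX10, both -0.28 without the third library. In A375 clone 1.2 these medians were 0.10 and 0.11. The part of chromosome dosage in the SOX10 values was not tested. The other WM115 clones ranged from 321 to 525 TPM and overlapped WT, and none of them was called. Outside the third library of WM115 clone 1.2, SOX10 thus stayed between 272 and 876 TPM. An antisense partner, POLR2F, overlaps exons of SOX10 at 71.4 to 416 TPM, and the sources used here do not say whether strand was used in quantification.

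Promoter windows were looked up for the members because CDH19 and MIA were high together in the R4 clones of WM115 and GJB1 was low in several clones. RefSeq (GRCh38.p14) gave 10 windows of 300 bases, from 250 before to 50 after a start, for 7 of the 8 members. ERBB3 was not among them. SOX-type letters were searched as ACAAAG and ACAATG on both strands. The words differ by a letter, so no stretch matches both at the same place. Of the 10 windows 3 held a match, those of CDH19, GJB1 and MIA, while 24.5% of all 35116 promoter windows hold at least 1 of these words (16.1% ACAAAG, 10.8% ACAATG). These are the genes that prompted the search, and the share is near that of all windows, so nothing is read from it. The 200 bases farthest upstream of each of these 3 windows are shown, on the strand of the gene, 5′ to 3′, with the matched letters in capitals. They lie at chr18:66604141-66604340 (minus strand), chrX:71214989-71215188 (plus strand) and chr19:40774910-40775109 (plus strand), outside annotated exons, and the MIA stretch lies between exons within the annotated span of the gene. The matches begin at positions -204, -247 and -202 from the start, the MIA match reading ACAAAG on the opposite strand. A match describes the letters of a window and does not show a site, and the absence of one in the other windows says only that these words do not occur there.
CDH19: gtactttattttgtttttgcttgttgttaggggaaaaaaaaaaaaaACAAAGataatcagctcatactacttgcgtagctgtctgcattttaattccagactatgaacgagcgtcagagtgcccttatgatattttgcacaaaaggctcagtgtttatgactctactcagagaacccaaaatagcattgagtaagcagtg
GJB1: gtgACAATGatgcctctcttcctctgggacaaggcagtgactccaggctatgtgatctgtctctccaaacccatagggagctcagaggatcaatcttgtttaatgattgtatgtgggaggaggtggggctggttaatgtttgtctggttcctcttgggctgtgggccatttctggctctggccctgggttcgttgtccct
MIA: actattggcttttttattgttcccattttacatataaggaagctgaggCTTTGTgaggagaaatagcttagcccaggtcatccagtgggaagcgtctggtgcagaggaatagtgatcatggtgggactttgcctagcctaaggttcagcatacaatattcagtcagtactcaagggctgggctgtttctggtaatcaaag

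**Figure D1:**
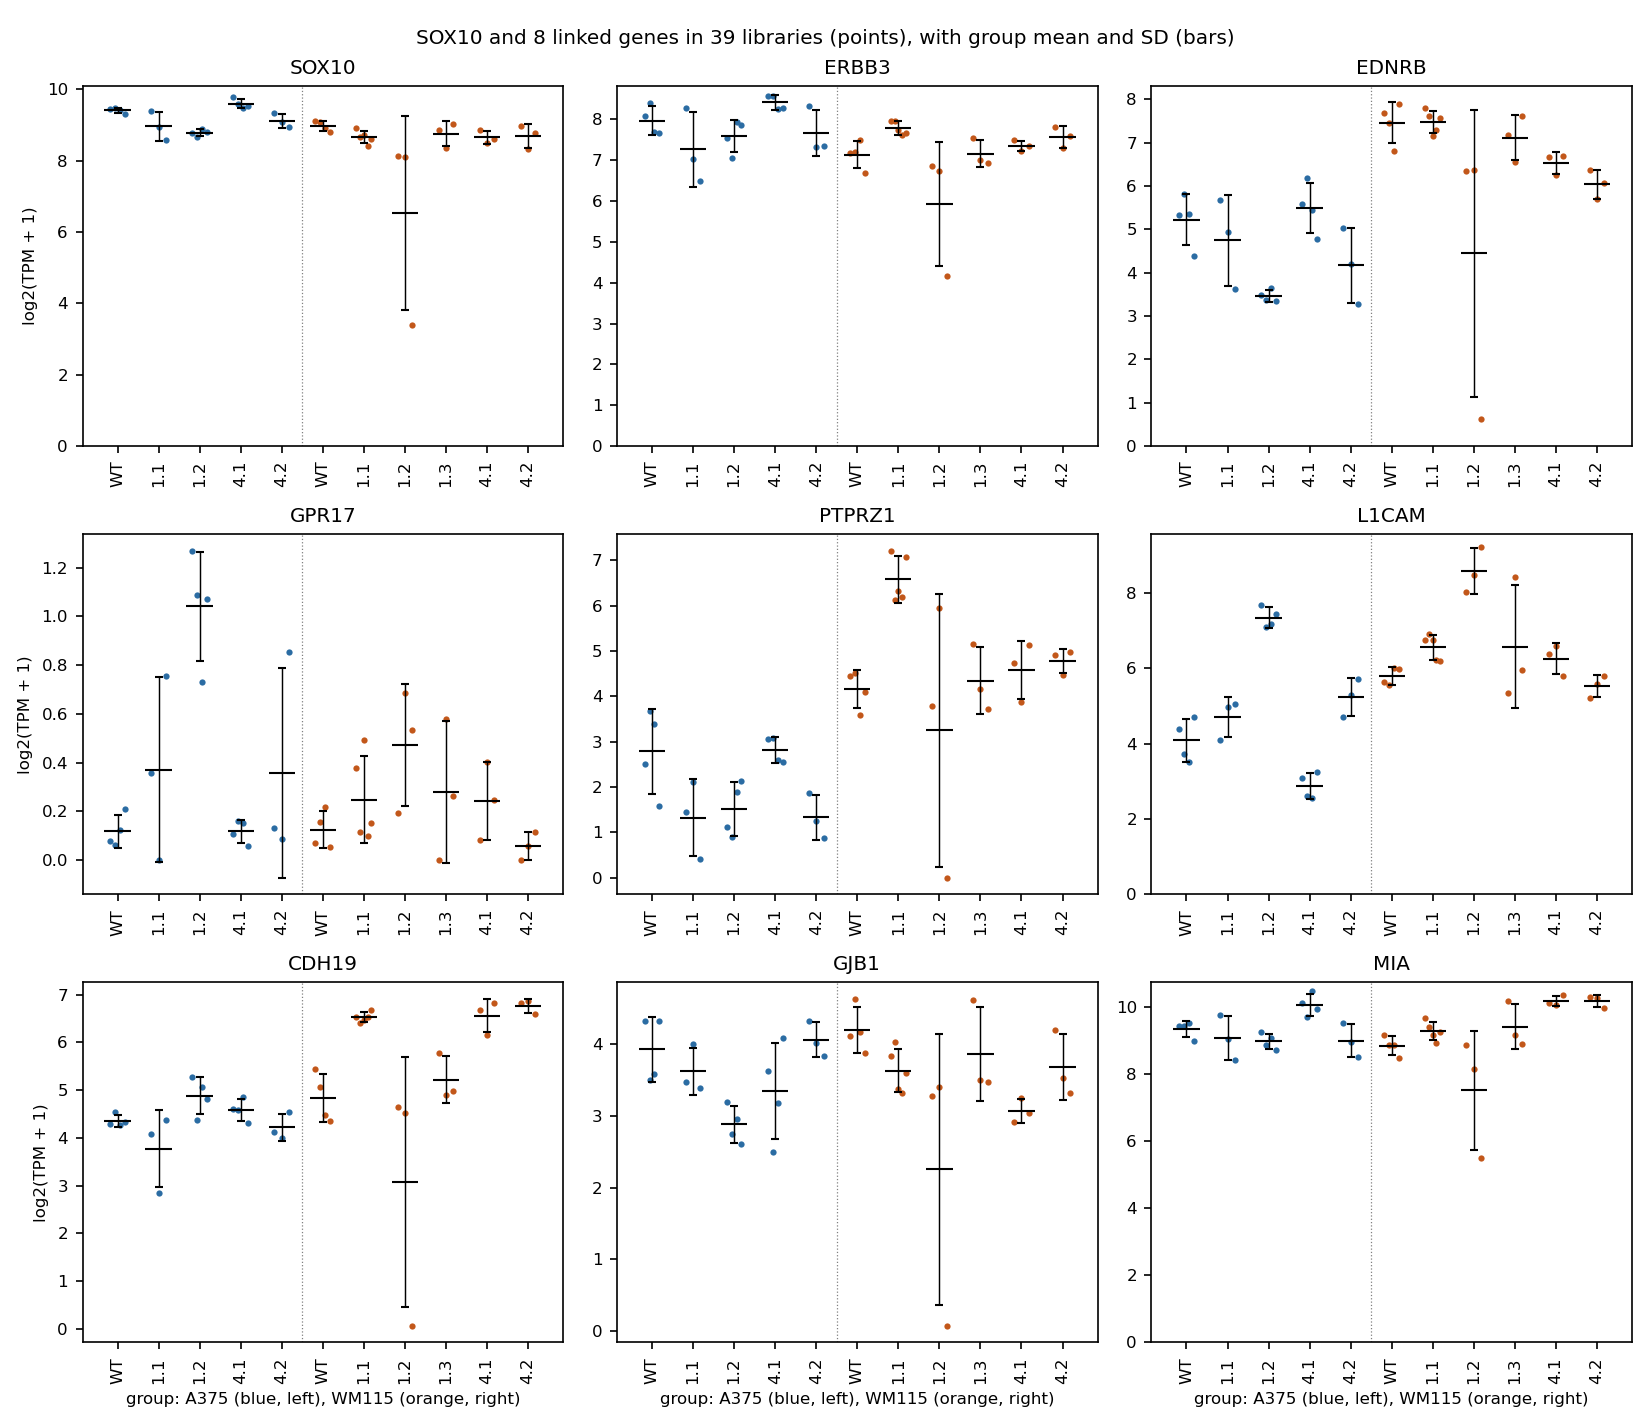
Levels of SOX10 and of the 8 genes as log2(TPM + 1) (vertical axis) in the 5 A375 groups and 6 WM115 groups (horizontal axis); points are libraries, horizontal bars group means and vertical bars the SD. L1CAM stood highest in clone 1.2 of both lines, CDH19 and MIA were high in WM115 clones 4.1 and 4.2, and 1 library of WM115 clone 1.2 lay far below the others for 6 of the 8 genes.

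Few members were called against WT. In A375 no member of 8 was called in clones 1.1, 4.1 and 4.2, where 0.731%, 0.653% and 0.473% of 16692 genes were, and 3 were called in clone 1.2, where 4.01% were. At an unadjusted p under 0.05, clone 1.1 had 1 member (PTPRZ1), clone 4.1 had 2 (L1CAM and MIA) and clone 4.2 had 3 (PTPRZ1, L1CAM and EDNRB). In WM115, 7 members passed the filter of 1 TPM in 3 libraries, GPR17 being the exception. Of these, 1 was called in clone 1.1 (4.88% of 16997 genes), 4 in clone 1.2 (7.61%), and none in clones 1.3 (0.618%), 4.1 (7.57%) and 4.2 (6.6%). The last 3 clones had 0, 2 and 2 members (CDH19 and MIA) at an unadjusted p under 0.05. Shares of all genes at an unadjusted p under 0.05 are not given for single clones, so nothing is read from the member counts at that level. WM115 clone 1.2 had 2 called members without library 3 (3.12% of genes) and all 7 without library 2. The share of all genes is not given for the fit without library 2, which keeps the outlying library 3, so nothing is read from that count. In A375, 3 members of clone 1.2 other than GPR17, which passed the filter only through that clone, did not overlap WT, beside 13.8% of genes, 2 in clone 4.1 (7.12%), and 0 in clones 1.1 (7.41%) and 4.2 (6.52%). In WM115, 4 did not overlap WT in clone 1.1 (23.6%), 3 in clone 1.2 (28.3%), 0 in clone 1.3 (11.5%), 4 in clone 4.1 (36.9%) and 3 in clone 4.2 (32.1%). The median log2 difference of the 7 members other than GPR17 was -0.37 in A375 clone 1.2, beside 0.07 for all genes tested. In WM115 clone 1.2 it was -1.34 with library 3, beside -0.02 for all genes, and -0.33 without it, beside 0.0017. The shared spread of the WM115 fit includes library 3 of clone 1.2. With that library left out of the fit, an alternative chosen after seeing the data, 2 members were called in clone 1.1 (5.04% of genes), 3 in clone 4.1 (7.91%), 3 in clone 4.2 (6.98%) and 0 in clone 1.3 (0.782%). A fit of only the clone and WT gave the same counts for clones 1.1, 4.1 and 4.2, with the shares of all genes not given here. Some marker lists moved in clone 1.2, which had called members in both lines. The 6 epithelial markers summed to 469 to 629 TPM in A375 clone 1.2 against 257 to 404 in WT, and to 184 to 240.2 TPM in WM115 clone 1.2 against 72.0 to 141 in WT. The 6 fibroblast markers summed to 15.2 to 20.8 TPM in A375 clone 1.2 against 6.18 to 13.1 in WT, and the 10 melanoma markers were below WT in both clones, at 733 to 992 TPM against 1152 to 2116 and 52.0 to 1280 TPM against 1515 to 3445. None of these ranges overlapped WT, and their part in the calls of clone 1.2 was not tested. The fibroblast markers of WM115 clone 1.2, at 470 to 835 TPM, did overlap WT, at 460 to 672 TPM. Melanoma markers were also below WT in WM115 clone 4.1, at 1092 to 1446 TPM.

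**Figure D2:**
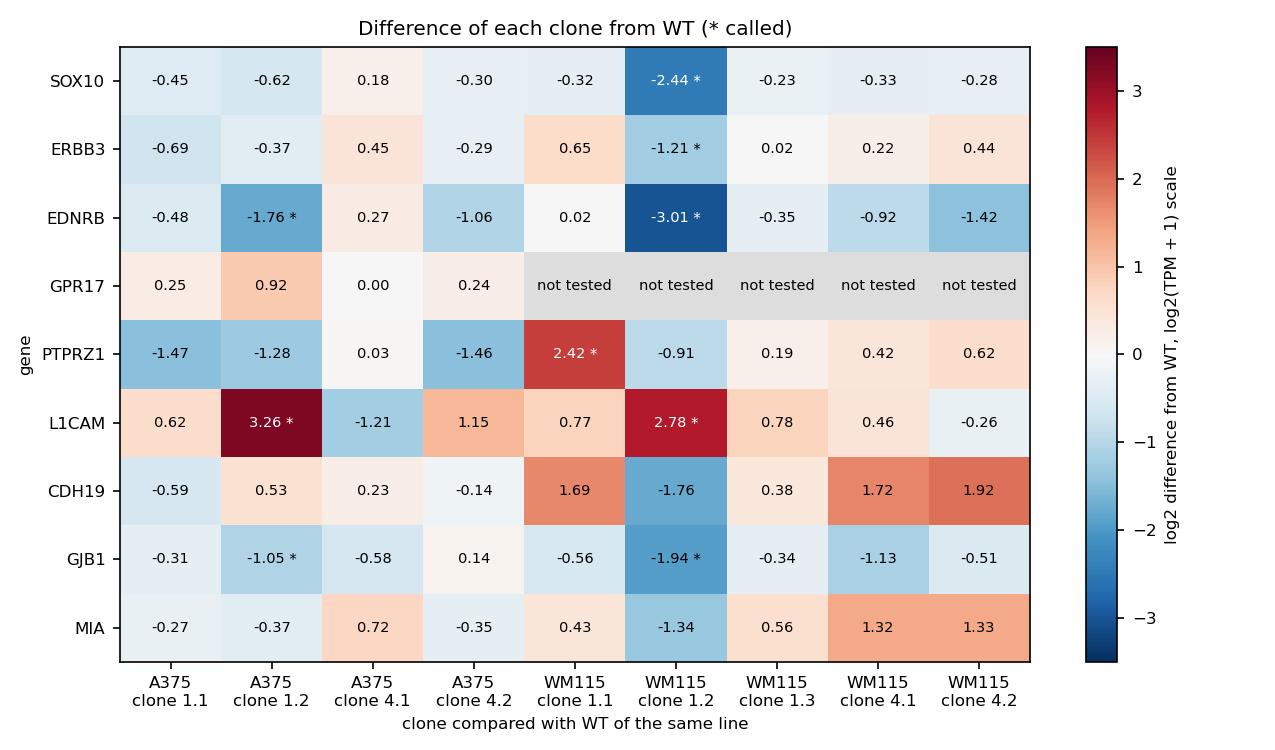
Log2 difference of each clone (columns) from WT of its line for SOX10 and the 8 genes (rows), on the log2(TPM + 1) scale, with an asterisk where the difference was called. Calls lie in clone 1.2 of both lines and in WM115 clone 1.1 (PTPRZ1), and L1CAM is the gene called higher in clone 1.2 of both lines.

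Among the receptors, ERBB3 (ENSG00000065361, chr12:56076799-56103505, plus strand, GRCh38), which pairs with ERBB2 to signal, was abundant everywhere but in 1 library. A375 WT held 272, 339, 204 and 203 TPM, and the libraries of clone 4.1, at 377, 383, 305 and 307 TPM, lay toward the top of the line and overlapped WT. In clone 1.1 the 3 libraries gave 310.0, 130.0 and 89.0 TPM and in clone 4.2 319, 159.9 and 163 TPM, in each clone with the first library far above the others. Clone 1.2 stood at 185, 132, 243 and 230.3 TPM and overlapped WT. In WM115, WT held 143, 146, 178 and 101 TPM and clone 1.1 held 247, 249, 213, 195 and 202 TPM, every library above WT, but not called (log2 difference 0.65, SE 0.37, adjusted p = 0.215). Without library 3 of clone 1.2 in the fit the adjusted p was 0.00604, with the difference still under the minimum size. WM115 clone 1.2 had 116, 106 and 17.0 TPM. Its call, a log2 difference of -1.21 (SE 0.42, adjusted p = 0.0447), rests on the third library: without it the difference was -0.33 (adjusted p = 0.353). The call was also lost without WT library 1, 2 or 3, with adjusted p-values of 0.0821, 0.0873 and 0.0917. The remaining WM115 clones had 120.3 to 226 TPM and overlapped WT.

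EDNRB (ENSG00000136160, chr13:77895481-77975529, minus strand, GRCh38) was, with GJB1, 1 of the 2 members called lower in clone 1.2 of both lines. A375 WT libraries had 39.6, 55.1, 39.8 and 20.1 TPM and those of clone 1.2 10.2, 9.36, 11.6 and 9.20 TPM, all below WT and close to each other. The log2 difference was -1.76 (SE 0.43, adjusted p = 0.0149), and among the 12 libraries of low mitochondrial share it was -1.75 (adjusted p = 0.424), the same size without a call. A375 clone 1.1 held 50.3, 29.6 and 11.3 TPM and clone 4.2 31.6, 17.3 and 8.77 TPM, from within the WT range to below it. Clone 4.1, at 47.3, 71.6, 42.8 and 26.2 TPM, overlapped WT. WM115 WT was higher, at 206, 176, 110.4 and 239 TPM, and clone 1.2 was at 80.2, 82.2 and 0.548 TPM. That fall, a log2 difference of -3.01 (SE 0.86, adjusted p = 0.0194), was -1.1 (adjusted p = 0.0324) without the third library, still called. In a fit of only clone 1.2 and WT it was not called (adjusted p = 0.164). Nor was it under a replicate block (0.224) or among libraries of high mitochondrial share (0.0730). WM115 clones 4.1 and 4.2 had 102, 75.1 and 103 TPM and 81.5, 50.7 and 66.0 TPM, every library below WT, with log2 differences of -0.92 (adjusted p = 0.467) and -1.42 (adjusted p = 0.253). The second of these was called (adjusted p = 0.000967) when library 3 of clone 1.2 was out of the fit. Beside these values, the genes of chromosome 13 were lower as a group in several of the same clones: their median log2 difference was -0.33 in A375 clone 1.2, -0.31 in WM115 clone 1.2 and -0.58 in WM115 clone 4.2, and within 10 Mb of EDNRB it was -0.23, -0.28 and -0.25. In WM115 clones 1.1 and 1.3, where EDNRB overlapped WT, the chromosome's median was -0.30 and -0.23, and in WM115 clone 4.1 it was 0.02. The part of chromosome dosage in the EDNRB values was not tested.

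GPR17 (ENSG00000144230, chr2:127645864-127652639, plus strand, GRCh38) was barely detected. It reached 1 TPM in 3 libraries, all of A375 clone 1.2, and so was tested in A375 only because of that clone. Clone 1.2 held 1.41, 1.13, 0.661 and 1.1 TPM, against 0.0570, 0.0430, 0.0890 and 0.157 TPM in WT. These levels are given as a description, since the clone that was high also let the gene into the test. No WM115 library exceeded 0.607 TPM. LIMS2, a gene for a focal adhesion adaptor, lies on the other strand, and its exons overlap those of GPR17. In A375 clone 1.2 LIMS2 tended higher, at 2.71, 1.04, 1.91 and 2.60 TPM, but overlapped the 0.842, 1.65, 0.711 and 0.372 TPM of WT. In WM115 clone 1.2 LIMS2 was at 5.18, 8.27 and 10.9 TPM, where GPR17 was at 0.145, 0.607 and 0.449 TPM. Reads of these genes cannot be told apart without strand, so the GPR17 value is uncertain.

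Among the surface proteins of glia, PTPRZ1 (ENSG00000106278, chr7:121873089-122062036, plus strand, GRCh38), a phosphatase whose ligands include pleiotrophin, was called in 1 clone. In A375 WT it was at 4.72, 11.7, 9.48 and 2.01 TPM and in clone 4.1 at 7.30, 7.49, 5.09 and 4.88 TPM. Clones 1.1, 1.2 and 4.2 lay lower, at 1.72, 3.33 and 0.337 TPM, 1.17, 0.871, 2.69 and 3.41 TPM and 2.63, 1.40 and 0.847 TPM, and none was called (log2 differences -1.47, -1.28 and -1.46, adjusted p from 0.0803 to 0.372). All 3 overlapped WT through the lowest WT library. WM115 clone 1.1 went the other way: its 5 libraries had 147, 69.0, 78.6, 72.0 and 133 TPM, against 20.8, 21.9, 11 and 16.2 TPM in WT, with no overlap. PTPRZ1 rose there by a log2 difference of 2.42 (SE 0.73, adjusted p = 0.0232). The call was lost without WT library 3 or 4, at adjusted p-values of 0.0542 and 0.0522. It was also lost with a term for libraries above or below a mitochondrial share of 7.5% (2.54, adjusted p = 0.0532). It held at an adjusted p of 0.000335 without library 3 of clone 1.2. Clone 1.2 of WM115 was the least even group, with 12.8, 61.1 and 0 TPM, so that its difference of -0.91 (adjusted p = 0.449) turned to 0.71 (adjusted p = 0.424) without the third library. Clones 1.3, 4.1 and 4.2 ranged from 12.3 to 34.7 TPM and overlapped WT. Of its 21 transcripts, the 1 with the largest share of the gene's TPM in each line, PTPRZ1-205, is annotated as a processed transcript (39.1% in A375 and 36.2% in WM115).

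L1CAM (ENSG00000198910, chrX:153861514-153886174, minus strand, GRCh38), an adhesion molecule of axons and of migrating cells, was the member called with the smallest adjusted p. In A375 clone 1.2 it was at 205, 135, 143 and 173 TPM, against 19.9, 12.2, 10.5 and 25.3 TPM in WT, with a wide gap between the groups. It rose by 3.26 (SE 0.29, adjusted p = 1.49e-06), and this call held in each of the 19 alternatives run. WM115 clone 1.2 had 259, 357 and 599 TPM, against 48.5, 46.1, 63.6 and 61.9 TPM in WT, and library 3, which had the least SOX10, had the highest L1CAM of all 39. The rise of 2.78 (SE 0.48, adjusted p = 0.000968) held in each of 18 alternatives and was 2.46 (adjusted p = 0.0107) without that library. A375 clone 4.1, the clone with the most SOX10, had the least L1CAM: 7.45, 5.16, 4.91 and 8.49 TPM, all 4 libraries below WT. The log2 difference of -1.21 (SE 0.29, adjusted p = 0.0521) just missed the threshold. Same-numbered libraries of clone 4.1 and WT deviated together (r 0.33 to 0.78 across genes in the 4 pairs), and with the number as a block L1CAM was called (-1.21, adjusted p = 0.00261), 1 of 8 members beside 1.45% of genes. In that paired fit ERBB3 (0.45, adjusted p = 0.0189) and MIA (0.72, adjusted p = 0.0127) were higher and GJB1 (-0.58, adjusted p = 0.0420) lower at sizes under the minimum. SOX10 itself differed by only 0.18 there (adjusted p = 0.135). A375 clone 4.2 had 25.0, 38.2 and 52.0 TPM and clone 1.1 16.1, 30.3 and 32.2 TPM. In WM115 clone 1.3 the libraries had 39.4, 342 and 61.4 TPM, the second library high alone. That library also had the least SOX10 of its clone (328 TPM). WM115 clone 1.1 had 107, 119, 106, 73.5 and 72.1 TPM of L1CAM, every library above WT, but was not called (log2 difference 0.77, adjusted p = 0.2). WM115 clones 4.1 and 4.2, at 83.1, 95.2 and 54.5 TPM and 36.3, 47.4 and 54.3 TPM, overlapped WT. Clone 4.2 had the lowest mean of the line (46.0 TPM). SOX10 overlapped WT in each of these clones.

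CDH19 (ENSG00000071991, chr18:66501083-66604138, minus strand, GRCh38), a cadherin typical of Schwann cell precursors, was high in 3 of the WM115 clones. WT libraries had 42.5, 32.3, 21.3 and 19.6 TPM. Clone 1.1 had 91.2, 83.3, 87.7, 91.8 and 102 TPM, clone 4.1 102, 70.5 and 112 TPM and clone 4.2 112, 116 and 94.8 TPM. Every library of these clones lay above every WT library. The log2 differences were 1.69 (adjusted p = 0.0544), 1.72 (adjusted p = 0.0787) and 1.92 (adjusted p = 0.0569), none called. Without library 3 of clone 1.2 in the fit all 3 were called, at adjusted p-values of 2.35e-05, 7.62e-05 and 4.12e-05. In WM115 clone 1.2, libraries 1 and 2 had 24.1 and 22.1 TPM, within the WT range, and library 3 had 0.0400 TPM. A375 was steadier, with 18.6, 22.3, 18.2 and 19.2 TPM in WT and 6.21 to 37.8 TPM in the clones, and no clone was apart from WT.

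GJB1 (ENSG00000169562, chrX:71215194-71225516, plus strand, GRCh38), whose protein forms gap junction channels in Schwann cell myelin, was low in clone 1.2 of both lines. A375 WT had 18.9, 10.3, 10.9 and 18.9 TPM and clone 1.2 8.18, 5.71, 6.80 and 5.12 TPM, every library below WT. GJB1 fell there by a log2 difference of -1.05 (SE 0.29, adjusted p = 0.0315), close to the minimum size. The call was lost without WT library 1 or 4 or clone library 2, 3 or 4 (adjusted p 0.0641 to 0.102), with no filter on low values (0.0607), under a replicate block (0.0875), and among libraries of low mitochondrial share (-1.07, adjusted p = 0.432). WM115 WT had 16.3, 23.8, 16.9 and 13.6 TPM and clone 1.2 8.73, 9.62 and 0.0510 TPM. The log2 difference of -1.94 (SE 0.54, adjusted p = 0.017) became -0.85 (adjusted p = 0.103) without the third library. This call was also lost in a fit of only clone 1.2 and WT (adjusted p = 0.133), under a replicate block (0.196) and among libraries of high mitochondrial share (0.0625). WM115 clone 4.1, at 6.57, 8.53 and 7.21 TPM, also lay below all WT libraries. Its log2 difference was -1.13 (SE 0.54, adjusted p = 0.137), with an adjusted p of 0.00539 when library 3 of clone 1.2 was out of the fit. Both R4 clones of WM115 had less GJB1 than WT on average, but clone 4.2, at 17.4, 10.5 and 8.99 TPM, overlapped it.

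MIA (ENSG00000261857, chr19:40771648-40777490, plus strand, GRCh38), the secreted member, had the highest TPM of the 8 in every library but 2 of WM115 clone 1.2, where L1CAM was higher. In WM115, clone 4.1 had 1113, 1064 and 1303 TPM and clone 4.2 1251, 1245 and 1005 TPM, against 578, 463, 471 and 359 TPM in WT. Both R4 clones lay above WT without overlap. The log2 differences of 1.32 (SE 0.50, adjusted p = 0.0607) and 1.33 (SE 0.50, adjusted p = 0.0662) were not called, and without library 3 of clone 1.2 in the fit they were, at adjusted p-values of 0.00116 and 0.00146. SOX10 in these clones, 465, 360.0 and 389.6 TPM and 506, 321 and 438 TPM, did not exceed the highest WT library. A375 clone 4.1 had 1122, 841, 1433 and 976 TPM, above the 698, 691, 738 and 506 TPM of WT and not called without pairing (log2 difference 0.72, SE 0.26, adjusted p = 0.264). A375 clones 1.1 and 4.2 repeated the uneven pattern of ERBB3, with 859.5, 532 and 344 TPM and 729, 498 and 367 TPM. WM115 clone 1.2 had 467, 286 and 44.5 TPM, clone 1.1 487 to 817 TPM and clone 1.3 1154, 576 and 478 TPM. The readthrough gene MIA-RAB4B, which shares exons with MIA on the same strand, stayed at 2.92 TPM or less.

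The next question was whether libraries with more SOX10 had more of each gene. Within A375 the coupling was plainest in clones 1.1 and 4.2, whose libraries cover the widest SOX10 ranges of the line. In clone 1.1, from 667, 491 and 381 TPM of SOX10, ERBB3, EDNRB and MIA were each highest, middle and lowest in the same libraries as SOX10, while L1CAM was lowest where SOX10 was highest (16.1 TPM) and highest where it was lowest (32.2 TPM). Clone 4.2 showed the same order for EDNRB, MIA and L1CAM, and nearly so for ERBB3. Same-numbered libraries of these 2 clones deviated together across genes (r 0.43 to 0.74), so the clones are not independent here. Across all 18 A375 libraries Pearson's r with SOX10 was 0.88 for EDNRB, 0.84 for ERBB3, 0.83 for MIA and 0.78 for PTPRZ1. It was 0.29 for GJB1 and -0.05 for CDH19, and negative for L1CAM (-0.85) and GPR17 (-0.79). GPR17 reached 1 TPM only in clone 1.2, which had the lowest mean SOX10 of the line, so nothing is read from its value. An r as high as that of EDNRB was reached by 0.563% of genes, and one as low as that of L1CAM by 0.425%. Among the 12 libraries of low mitochondrial share r was 0.94 for ERBB3, 0.88 for EDNRB, 0.86 for MIA and -0.85 for L1CAM, and among the 6 of high share 0.36, 0.86, 0.86 and -0.93. The points share clones, library composition and WT, so these values are descriptions.

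In WM115 the same correlations were set largely by 1 library. Across 21 libraries r was 0.94 for EDNRB, 0.90 for GJB1, 0.89 for ERBB3, 0.80 for CDH19, 0.80 for MIA, 0.68 for PTPRZ1 and -0.68 for L1CAM. Without library 3 of clone 1.2, r over 20 libraries was 0.54 for EDNRB, 0.54 for GJB1, 0.32 for ERBB3, 0.17 for MIA, 0.07 for CDH19 and -0.08 for PTPRZ1. L1CAM alone of the 7 genes kept its size, at -0.71, which 0.430% of genes reached or went below. In that library SOX10 was at 9.56 TPM. CDH19 was at 0.0400 TPM, GJB1 at 0.0510 TPM and EDNRB at 0.548 TPM, and PTPRZ1 was listed at 0. ERBB3 and MIA were lower by less and remained at 17.0 TPM and 44.5 TPM, and L1CAM reached 599 TPM. In a bulk library fewer cells that express a gene and less RNA per cell cannot be told apart.

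**Figure D3:**
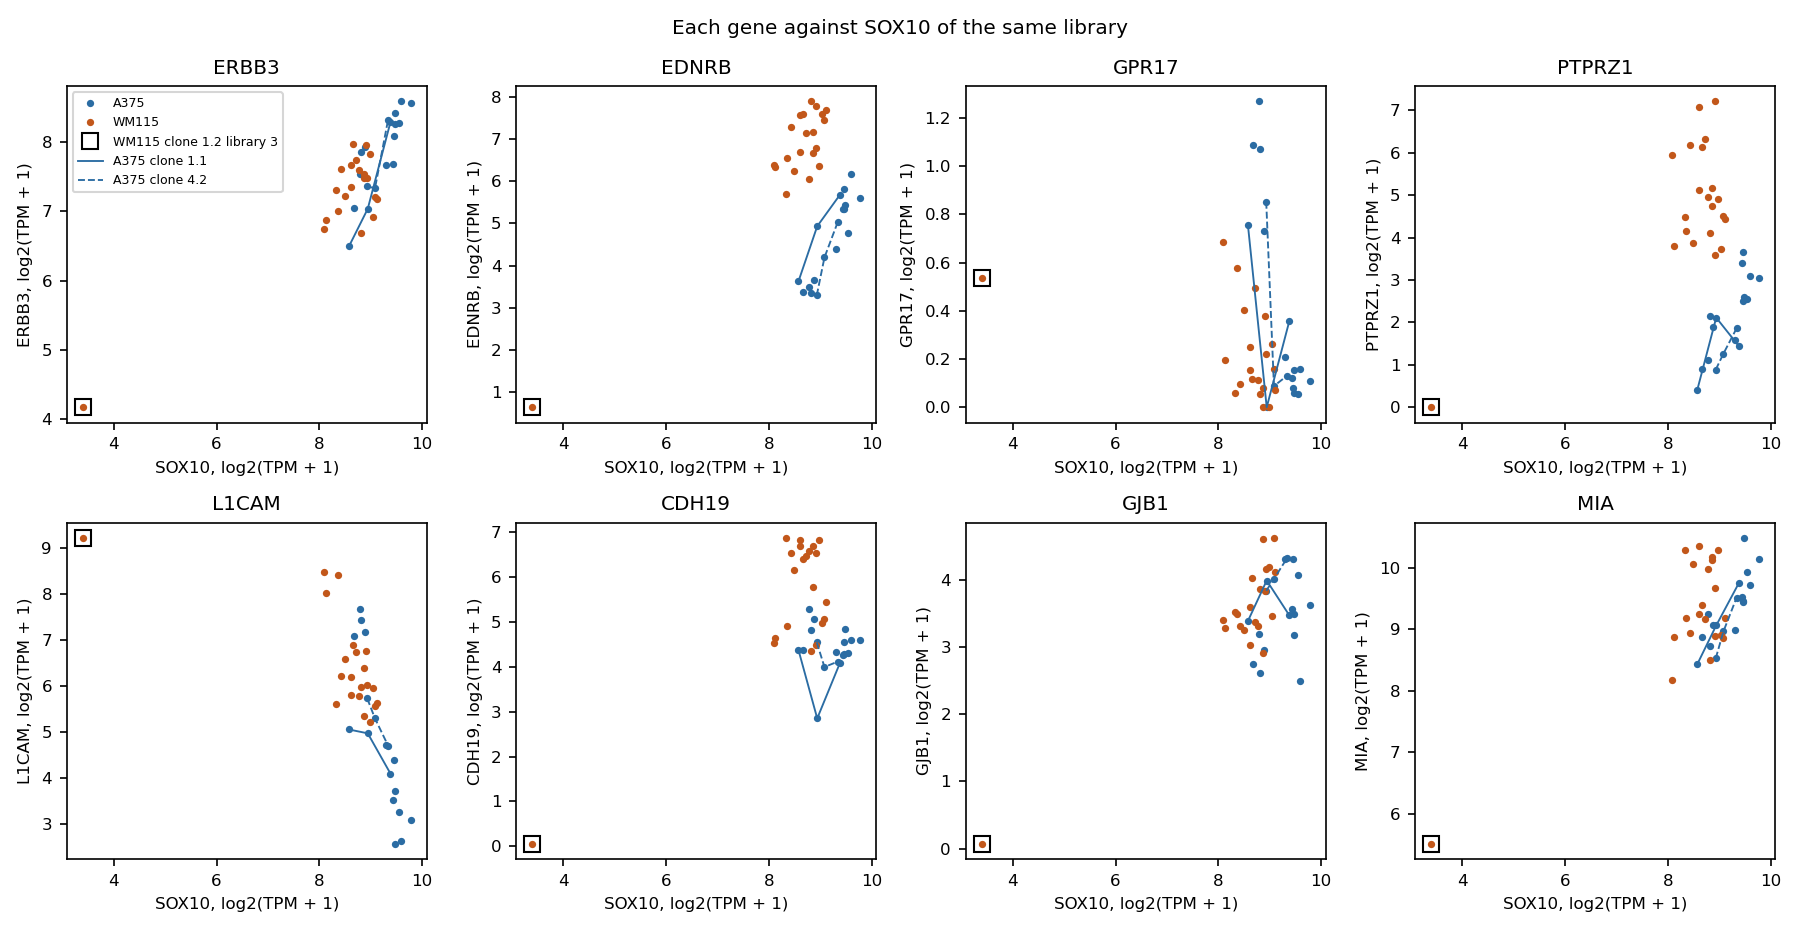
Each gene's log2(TPM + 1) (vertical axis) against SOX10 log2(TPM + 1) of the same library (horizontal axis) in 18 A375 and 21 WM115 libraries, with the libraries of A375 clones 1.1 and 4.2 joined by lines and library 3 of WM115 clone 1.2 boxed. ERBB3, EDNRB and MIA rise and L1CAM falls with SOX10 in A375, and in WM115 the boxed library lies alone at the low end of SOX10.

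Differences between groups were then taken out by a fit with 1 term per group and SOX10 as a covariate. In A375, 3 of 8 members were called at an adjusted p under 0.05, beside 7.57% of 16691 genes. Per doubling of SOX10, ERBB3 rose by 2.3 ± 0.32 (SE, adjusted p = 0.00155) on the log2 scale, EDNRB by 2.77 ± 0.52 (SE, adjusted p = 0.00809) and MIA by 1.53 ± 0.36 (SE, adjusted p = 0.0228). The slopes of PTPRZ1, 1.94 ± 0.73 (SE, adjusted p = 0.102), and L1CAM, -1.24 ± 0.50 (SE, adjusted p = 0.121), were not called, nor were those of GPR17, CDH19 and GJB1 (-0.66, -0.19 and 0.22). The calls rest on the wide clones: without library 1 of clone 1.1 none of the 3 was called, without library 3 of clone 1.1 only ERBB3 was, and with the replicate number as a block term only EDNRB was. The slopes of the 3 genes were 1.40 or more in these fits. The MIA slope also lost its call with no filter on low values (adjusted p = 0.0598) and without library 1 or 3 of clone 4.2 (adjusted p = 0.0954 and 0.0543). In WM115, 6 of 7 members were called, beside 8.37% of 16996 genes: EDNRB 1.21 ± 0.07 (SE, adjusted p = 1.97e-09), PTPRZ1 1.02 ± 0.14 (SE, adjusted p = 0.000145), CDH19 0.94 ± 0.08 (SE, adjusted p = 4.19e-07), GJB1 0.69 ± 0.08 (SE, adjusted p = 3.34e-05), MIA 0.63 ± 0.08 (SE, adjusted p = 6.51e-05) and ERBB3 0.56 ± 0.05 (SE, adjusted p = 1.2e-06). The slope of L1CAM was -0.27 ± 0.15 (SE, adjusted p = 0.313). Without library 3 of clone 1.2 none of 7 was called, beside 0.894% of genes. The slopes then were 1.03 ± 0.31 (SE, adjusted p = 0.115) for EDNRB, 0.57 ± 0.24 (SE, adjusted p = 0.233) for ERBB3 and -1.46 ± 0.64 (SE, adjusted p = 0.249) for L1CAM, and 6 of the 7 were above 0. All genes had slopes from -0.83 to 0.82 between the 5th and 95th percentile of that fit. With library 3 of clone 1.2 that range was -0.18 to 0.26 in WM115. In A375 it was wide, from -1.33 to 1.71. The A375 slopes of MIA, though called, and of L1CAM lay inside it, so they were of ordinary size for that fit. Those of ERBB3, EDNRB and PTPRZ1 lay above it. In simulated data with a slope of 1, the fit found 0 of 200 changed genes in A375 and all 200 in WM115 with library 3 of clone 1.2. The simulation changed fewer genes than were called in A375, so it sets no detection limit for the real fit. There CNP, a myelin gene, was called at a slope of 1.17 (adjusted p = 0.018).

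**Figure D4:**
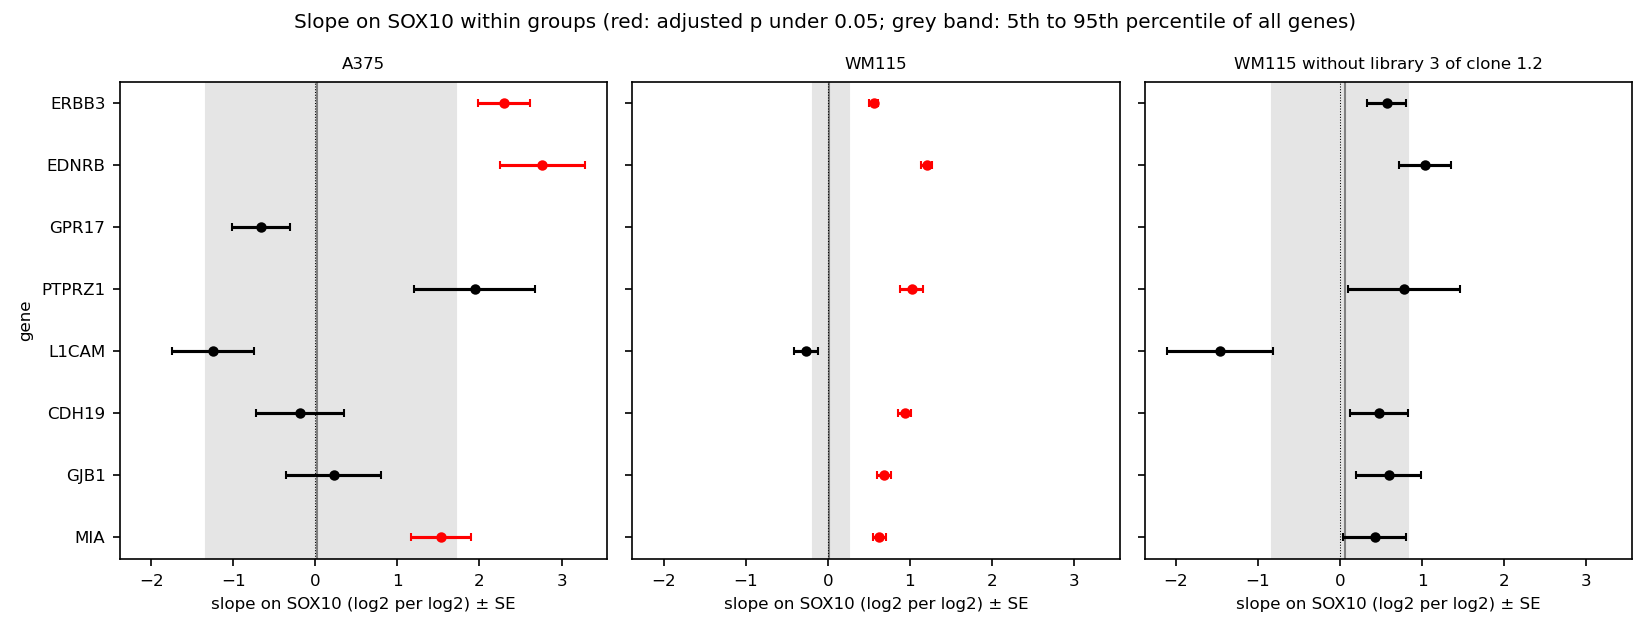
Slope of each gene on SOX10 within groups (points, log2 per doubling of SOX10, with the SE as bars) in A375, in WM115, and in WM115 without library 3 of clone 1.2; red marks an adjusted p under 0.05 and the grey band spans the 5th to 95th percentile of all genes tested, with a grey line at their median. ERBB3, EDNRB and MIA are red in A375, 6 genes in WM115, and none in the third panel.

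The unedited lines differed in several members. Of 7 tested, 3 were called between WM115 WT and A375 WT, beside 22.7% of 16126 genes, all 3 higher in WM115. The log2 difference was 2.24 (SE 0.32, adjusted p = 0.000322) for EDNRB, 1.71 (SE 0.26, adjusted p = 0.000522) for L1CAM and 1.37 (SE 0.42, adjusted p = 0.0223) for PTPRZ1. The last call was lost without A375 WT library 1 or 4 or WM115 WT library 1 or 2 (difference 0.97 to 1.28). ERBB3 was lower in WM115, at -0.83 (SE 0.22, adjusted p = 0.0109), and MIA at -0.50 (SE 0.19, adjusted p = 0.049), both under the minimum size. CDH19, at 0.48 (SE 0.23, adjusted p = 0.115), and GJB1, at 0.27 (SE 0.24, adjusted p = 0.39), did not pass. SOX10, at -0.43 (SE 0.13, adjusted p = 0.0202), was also lower in WM115.

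Whether R4 clones differed from R1 clones was tested over 8 clone means with the line as a covariate. No gene of 15287 was called (0%), and 658 had an unadjusted p under 0.05 (4.3%). L1CAM was lower in R4 clones by a log2 difference of -1.82 (SE 0.72, unadjusted p = 0.0339) and MIA higher by 1.14 (SE 0.43, unadjusted p = 0.0273), each with an adjusted p of 0.996. Both rest on the clone levels already given.

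Pathway partners of the members were examined from lists of related genes. Of 7 neuregulin and ERBB genes other than ERBB3, 4 were tested in A375 and 5 in WM115. In clone 1.2 of both lines, 2 rose and none fell: NRG1, the neuregulin ligand gene, was at 12.3 ± 2.96 TPM (SD, n = 4) in A375 clone 1.2 against 0.826 ± 0.741 TPM (SD, n = 4) in WT, a log2 difference of 2.92 (adjusted p = 6.14e-06), and 1.29 (adjusted p = 0.02) in WM115 clone 1.2. Without the third library of the latter, NRG1 was not called (1.27, adjusted p = 0.0865) and 1 of the list rose. NRG1 also rose in WM115 clone 4.1, at 2.03 to 6.66 TPM against 0.0580 to 0.994 TPM in WT (log2 difference 1.79, adjusted p = 0.00226). EGFR, the epidermal growth factor receptor, rose in both by 1.38 (adjusted p = 0.000419) and 1.74 (adjusted p = 0.000968), the latter 1.72 (adjusted p = 0.00733) without that library. EGFR also rose in A375 clone 1.1 and WM115 clone 4.1, and it fell in WM115 clone 1.1, from 2.67 ± 0.349 TPM (SD, n = 4) to 0.0422 ± 0.00550 TPM (SD, n = 5). ERBB2, the signalling partner of ERBB3, was not called in any clone and had group means of 25.9 to 51.4 TPM. Among 5 endothelin genes other than EDNRB, 2 were tested in A375 and 1 in WM115. ECE1, the enzyme that makes active endothelin, rose in WM115 clones 4.1 and 4.2, by 1.29 (adjusted p = 0.0132) and 1.52 (adjusted p = 0.00591). EDNRA, the other endothelin receptor, stayed at group means of 1.19 TPM or less.

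Of 10 partners of PTPRZ1 and L1CAM, 8 were tested in each line. In A375, 1 fell in clone 1.1, and 1 rose and 2 fell in clone 1.2. WM115 clone 1.1 had 2 that fell, clone 1.2 had 2 that rose, clone 4.1 had 1 of each, and clone 4.2 had 2 of each. NRP1, a semaphorin co-receptor that binds L1CAM, rose in A375 clone 1.2 (1.60, adjusted p = 0.00439) and in WM115 clones 1.2 and 4.2 (2.76, adjusted p = 0.00154, and 1.54, adjusted p = 0.0378). PTN, which encodes pleiotrophin, fell in A375 clone 1.1 (-1.01, adjusted p = 0.0112) and rose in WM115 clone 4.2 (1.03, adjusted p = 0.0123). NFASC and CHL1, of the L1 family, moved in WM115: NFASC fell in clone 1.1 (-1.41) and rose in clones 1.2 and 4.1 (1.89 and 1.17), and CHL1 fell in clones 4.1 and 4.2 (-2.81 and -2.05). Among 7 connexins other than GJB1, 3 were tested in each line. GJA5, connexin 40, rose in WM115 clones 4.1 (2.73, adjusted p = 0.001) and 4.2 (1.80, adjusted p = 0.018) and fell in clone 1.1 (-2.03, adjusted p = 0.00363). Of the 8 cadherins, CDH2 and CDH11 rose in WM115 clone 4.2 (1.05 and 1.27), and no cadherin of the 3 tested in A375 and 4 in WM115 was called elsewhere with all libraries in the fit. Of 3 MIA family genes 2 were tested, with none called in any clone, and none of the 3 relatives of GPR17 passed the filter.

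Of 20 further Schwann and myelin genes, 12 were tested in A375 and 14 in WM115. At most 1 fell and none rose in each A375 clone. In WM115 clone 1.2, 3 fell and 1 rose, with a median log2 difference of -0.67 over the 14 beside -0.02 over all genes. Without the third library none fell and 1 rose, and the median was -0.15. In clones 4.1 and 4.2, 2 and 1 rose and 1 and 1 fell. MBP, myelin basic protein, was at 101 ± 39.8 TPM (SD, n = 4) in WM115 WT and fell in clones 1.2, 4.1 and 4.2, with log2 differences of -2.11, -1.99 and -2.29. The first of these was -1.37 (adjusted p = 0.168) without the third library. EGR2, a factor of myelinating Schwann cells, rose in WM115 clones 4.1 and 4.2 (1.66 and 1.33). CDH19 and MIA were high in the R4 clones of WM115 beside higher EGR2 and lower MBP. Of 12 SOX10 partner factors, SOX10 itself included, 12 were tested in A375 and 11 in WM115. In A375, 1 fell in clone 1.1, and 1 rose and 1 fell in clone 1.2. In WM115, 1 rose and 4 fell in clone 1.2 (1 and 0 without the third library), and 2 and 3 fell in clones 4.1 and 4.2. MITF, the melanocyte master regulator, fell in WM115 clones 1.2, 4.1 and 4.2 (-2.01, -3.40 and -2.80) and in A375 clone 1.1 (-1.31). In WM115 clone 1.2 its difference was -0.97 (adjusted p = 0.237) without the third library. TFAP2A fell in WM115 clones 4.1 and 4.2 (-2.14 and -1.95). SOX9, a related factor of cartilage and undifferentiated melanoma, was listed at 0 in WM115 WT and was at 12.5 ± 6.57 TPM (SD, n = 3) in clone 1.2, and it rose in A375 clone 1.2 too (1.31, adjusted p = 1.26e-05). L1CAM rose in these 2 clones as well.

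Genes whose pattern was most like each member were found from line-centred log2(TPM + 1) over the 39 libraries. For ERBB3 these were SOX5 (r 0.91) and FYN (0.91), for EDNRB TNFRSF19 (0.91), for MIA COL9A3 (0.94) and AL035541.1 (0.92), and for PTPRZ1 NR4A2 (0.87) and SDC2 (0.85). L1CAM was nearest to TENM2 (0.89) and IRS1 (0.88), CDH19 to SH3PXD2A (0.88) and CD70 (0.84), GJB1 to GLB1L2 (0.83) and H1-9P (0.82), and GPR17 to AL161431.1 (0.79) and VEGFC (0.79). Without library 3 of WM115 clone 1.2, 13 of these 15 r were between 0.77 and 0.88, and those of CD70 and H1-9P dropped to 0.58 and 0.64. Among the members themselves, the r of L1CAM and GPR17 was 0.81 with and without that library. Those of ERBB3 and MIA (0.82) and of CDH19 and MIA (0.81) were 0.64 and 0.58 without it, when that of ERBB3 and PTPRZ1 was 0.65. L1CAM had a negative r with every other member but GPR17, from -0.31 with CDH19 to -0.65 with EDNRB, and without the library from -0.09 with CDH19 to -0.66 with EDNRB. GPR17 reached 1 TPM only in A375 clone 1.2, where L1CAM was also highest in the line. Nothing is therefore read from the r or the nearest genes of GPR17.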

How the data were processed

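RNA was sequenced from 39 libraries of A375 and WM115 cells, as total RNA selected on oligo-dT and copied from random hexamers, per the labels' protocols. The authors deposited TPM per gene and per transcript. DRAGEN and GRCh38 are named in the submitters' processing notes, and the aligner settings, counter and annotation release are not given in the sources used here. No counts were used, so depth is unknown and no interval or detection limit was computed. The gene table has 60871 lines for 60671 genes, its 200 repeated lines hold identical values, and 6 columns that match no sample were not used.

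Libraries were grouped by line and clone from the labels. WM115 clone 1.3, whose number and genotype label disagree, was left out of the R4 against R1 comparison. Replicates are libraries of a clone, and the labels do not say whether they are separate cultures. Genes at 1 TPM or more in at least 3 libraries of a line were fitted on log2(TPM + 1) with limma 3.58.1 (R 4.3.3, moderated test with variance trend, 1 term per group, p-values adjusted by Benjamini-Hochberg over all genes tested). A second fit took SOX10 as a covariate beside the group terms, called on the adjusted p alone. R4 and R1 clones were compared over clone means with the line as a term. The fits were tested on simulated data: of 100 genes changed by 1.5 on the log2 scale, 87 were recovered for A375 clone 1.2, among 16692 genes, and 93 for WM115 clone 1.2, among 16997. The changed genes were drawn from those of higher level, and the noise was independent between libraries. The recovery thus does not cover genes near the floor or libraries that deviate together.

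Replicate numbers were checked for pairing by correlating same-numbered deviations from group means across genes. All 4 pairs of A375 WT and clone 4.1 (r 0.33 to 0.78) and all 3 of A375 clones 1.1 and 4.2 (0.43 to 0.74) exceeded 0.1, and no other 2 groups did so in every pair. The labels do not say what a number marks. Alternatives were another pseudocount, filter, scaling or variance model, the mitochondrial set as a term or the larger set only, the 2 groups alone, the replicate number as a block, and each library left out. The mitochondrial sets divide the libraries at a share of 2.5% in A375 and 7.5% in WM115.

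The members and the gene lists were chosen with earlier results of these data known. Genes named from a list are the up to 3 called in most clones, ties by the size of the log2 difference, with NRG1, ERBB2, EDNRA and PTN whatever their values. The 2 genes most like each member were taken by r over line-centred values. A few genes that these rules name are not reported here. Gene positions are those of GENCODE 29 (GRCh38), and promoter windows are those of RefSeq GRCh38.p14. Genes on opposite strands that share exons cannot be told apart where strand was not used.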

Additional observations from a re-analysis of the deposited data

How the results depend on the processing

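Single-gene differences from WT kept their direction and side of the threshold in 776 of the settings run other than left-out libraries, were newly called in 25, lost a call in 21 and changed sign in 6. The L1CAM rise in clone 1.2 held in all 19 alternatives for A375 and all 18 for WM115. Counts of called members moved as follows, and where no cause is named the cause was not tested. Shares of all genes called are not given for most settings of this section, so a change in a count is not read as a result about the members. In A375 clone 4.1 the count was 1 with a pseudocount of 0.1, median-of-ratios scaling or quantile normalization, and in A375 clone 1.2 it was 1 in the larger mitochondrial set, which has fewer libraries. In WM115 clone 1.1 it was 0 with a pseudocount of 0.1, with no filter, with the mitochondrial set as a term and in the larger set. Median-of-ratios scaling gave 2, 1 and 2 in WM115 clones 1.1, 4.1 and 4.2, the 2 groups alone gave 2, 3 and 3, and the fit without library 3 of clone 1.2, chosen after seeing the data, gave 2, 3 and 3. WM115 clone 1.2 had 1 in the larger mitochondrial set and with the 2 groups alone. GJB1 in A375 clone 1.2 and the MIA slope in A375 lost their calls with no filter. Members called for a slope on SOX10 in A375 were 5 with median-of-ratios scaling or quantile normalization and 6 without group terms. Between the WT groups, 5 members passed with no minimum difference.

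With the replicate number as a block, the counts were 1 in A375 clone 4.1 and 2, 1, 2 and 2 in WM115 clones 1.1, 1.2, 4.1 and 4.2, and 1 member kept a slope on SOX10 in A375. The paired libraries are those of A375 WT and clone 4.1, and elsewhere the samples share only a number. The block turned ERBB3 in WM115 clone 1.3 to -0.13, EDNRB in WM115 clone 1.1 to -0.00094 and the A375 slope of GJB1 to -0.58.

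Signs also turned for values near 0. GPR17 in A375 clone 4.1 was -0.0093 in the larger mitochondrial set. EDNRB in WM115 clone 1.1 was -0.018 after quantile normalization, -0.043 with the mitochondrial set as a term and -0.031 in the larger set. In A375 the CDH19 slope was 0.24 and 0.030, and the GJB1 slope -0.11 and -0.14, after median-of-ratios scaling and quantile normalization.

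With each library left out in turn, called members ranged from 0 to 1 in A375 clone 1.1, from 2 to 3 in A375 clone 1.2, from 0 to 1 in A375 clone 4.1, from 0 to 2 in WM115 clone 1.1, from 2 to 7 in WM115 clone 1.2, and from 0 to 3 in WM115 clones 4.1 and 4.2. Slopes called ranged from 0 to 3 in A375 and from 0 to 6 in WM115. Differences from WT whose sign turned ranged from -0.95 to 0.083 for EDNRB in A375 clone 1.1, -0.0020 to 0.52 for EDNRB in A375 clone 4.1, -0.20 to 0.17 for EDNRB in WM115 clone 1.1, -0.17 to 0.14 for ERBB3 in WM115 clone 1.3, -0.0067 to 0.27 for GJB1 in A375 clone 4.2, -0.019 to 0.031 for GPR17 in A375 clone 4.1, -0.0090 to 0.37 for GPR17 in A375 clone 4.2, -0.15 to 1.40 for L1CAM in WM115 clone 1.3, -0.60 to 0.054 for MIA in A375 clone 1.1, -0.37 to 0.33 for PTPRZ1 in A375 clone 4.1, -2.27 to 0.71 for PTPRZ1 in WM115 clone 1.2 and -0.22 to 0.50 for PTPRZ1 in WM115 clone 1.3. Slopes in A375 ranged from -1.18 to 0.96 for CDH19 and -0.083 to 0.83 for GJB1. With a clone left out, R4 minus R1 ranged from -0.040 to 1.17 for EDNRB and -0.36 to 0.97 for PTPRZ1. Depth is unknown, and the narrow SOX10 range within groups limits the slopes.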
